A study of Mus musculus with 4 samples.

Results

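The open chromatin of 8 genes of the BCL2 family was described in regulatory T (Treg) cells from lymph nodes (LNs): the survival genes Bcl2, Bcl2l1 and Mcl1, the BH3-only death genes Bcl2l11, Bbc3 and Pmaip1, and the pore-forming genes Bax and Bak1. For each gene, all called peaks that touched its GENCODE gene body or the 20 kb on either side were taken, and peaks of the 4 libraries that overlapped by at least 1 bp were merged. The 8 windows, of 21938 protein-coding genes in all, held 114 of the 272233 merged regions of the genome. The ATAC-seq libraries, in which a transposase cuts accessible DNA, were made from 50000 sorted cells each, 2 biological replicates of wild-type (WT) and 2 of Il2ramut/mut mice, all female C57BL/6 animals of 6 to 8 weeks kept without stimulation. Both genotypes carried the Foxp3 Rfp reporter by which the RFP+ cells were sorted. Il2ramut/mut mice are homozygous for a point mutation in the gene for the IL-2 receptor alpha chain (CD25), which lowers CD25 on the cell surface, and the mutation is in every cell of the mouse, not in Treg cells alone. The comparison asks how open chromatin in Treg cells depends on IL-2 signals.

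Proteins of the BCL2 family decide whether a cell opens its mitochondrial outer membrane and dies. Bcl-2, Bcl-xL (from Bcl2l1) and Mcl-1 hold this step back. Bim (from Bcl2l11), Puma (from Bbc3) and Noxa (from Pmaip1) are BH3-only proteins that bind the survival proteins and release Bax and Bak, which form the pores through which cytochrome c leaves. IL-2, acting through STAT5, is a known survival signal of Treg cells, Mcl-1 is known to be needed for their survival, and Bim is known to mediate their death when this signal is lacking. Noxa pairs mainly with Mcl-1, and Puma is a known target of p53.

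Each called peak carries the fold enrichment at its summit over the library background, a −log10 p and a −log10 q. In each library the fold values rose in steps worth one read, so every fold could be turned back into a read number, given here as the reads at the summit. Because the depth of the libraries is unknown, each peak was also placed by the percentile of its −log10 p among all peaks of its own library, on which 100 would be the most significant peak. A library without a called peak in a region has no value there, and this does not show that the region was closed. Among weak peaks a single read moves the percentile far, as 8 reads stood at 47.7 and 9 reads at 62.4 in WT replicate 1. The 4 lists held 112569 to 142732 peaks, with a median of 8 reads at the summit in 3 libraries and 10 in Il2ramut/mut replicate 1. The starts of all 5 Treg marker genes examined (Foxp3, Il2ra, Ctla4, Ikzf2 and Tnfrsf18) and of 3 of 4 T cell genes were called in all 4 libraries. None of the 4 B cell or 2 NK cell markers had a called start, of the 4 myeloid markers Cd14 had one in 2 libraries, and of the CD8 T cell markers Cd8a had none while Cd8b1 was called in all 4, at percentiles of 84.2 and 84.5 in WT and 66.2 and 76.5 in Il2ramut/mut cells. Whether cells of another type contributed to the results was not tested. The T cell gene Cd28 had no called start. The Il2ra start was called in all 4 libraries, which does not check a point mutation.

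In both genotypes the BCL2 family genes lay in densely open chromatin. Of the 114 regions, 53 (46.5%) were called in all 4 libraries, against 14.1% of all merged regions of the genome. That background includes regions far from genes and is not a like one for gene windows. Over the windows of all protein-coding genes, the median was 4 regions, and the median number called in all 4 libraries was 2. The share of 46.5% is therefore not read as particular to these genes. A further 13 regions were called in 3 libraries, 19 in 2 and 29 in 1. The windows held between 4 regions called in all 4 libraries, at Bcl2l11, Pmaip1 and Bak1, and 12 at Bcl2. Per 100 kb of window, the survival gene Mcl1 had 18 such regions and the death gene Bbc3 had 14.1, against a median of 2.16 over all protein-coding genes. Bcl2l11 and Bcl2 had the lowest densities of the 8 genes, 5.23 and 5.55 per 100 kb. The windows also reach into neighbours: for 85 of the 114 regions the nearest protein-coding start was that of the BCL2 family gene itself, and the others lay nearer to Tpx2, Cox4i2, Adamtsl4, Ccdc9, Tulp2, Ftl1, Ruvbl2 or Ggnbp1.

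Each gene was given one start region, the one that covers its annotated start or else the nearest within 1 kb. The start regions of 7 of the 8 genes were called in all 4 libraries, and these 7 start regions were common to both genotypes as reproducible open regions, as were 71.9% of all reproducible open regions of the genome. Over the genome, 48.4% of protein-coding starts, taken in the same way, were called in all 4 libraries, with a median percentile of 94.4. By the median of the 4 percentiles the order was Bcl2l11 and Bcl2l1 at 97.0 each, Mcl1 at 95.4, Bcl2 at 93.7, Pmaip1 at 92.6, Bak1 at 91.4 and Bax at 89.0, and the libraries of neighbours in this order overlapped in every case but Mcl1 and Bcl2l1. The eighth gene, Bbc3, had as the nearest region to the start of its gene record a peak of 8 reads in WT replicate 1 alone. Its wide open region, called in all 4 libraries, began 588 bp from that start and covered the start of another annotated Bbc3 transcript, with a median percentile of 92.8.

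**Figure D1:**
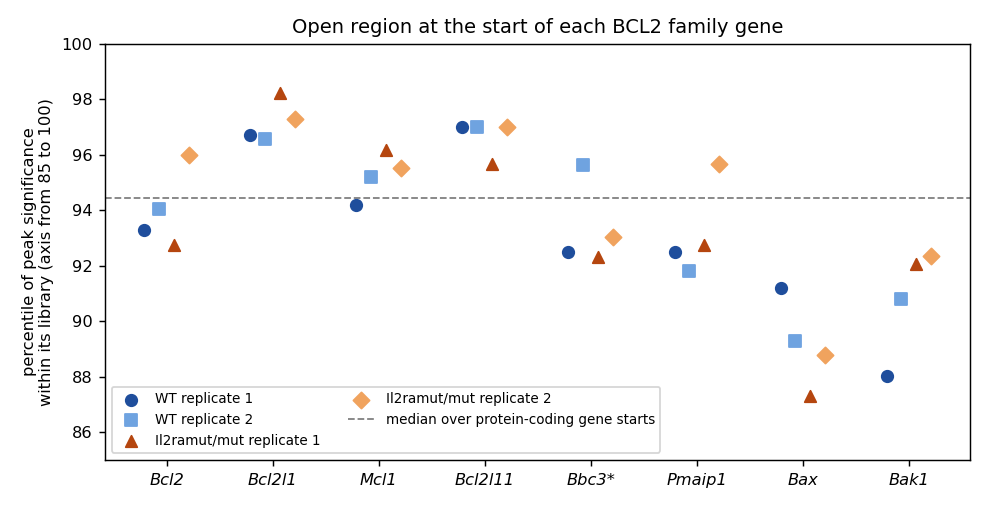
Percentile of the −log10 p of the peak at the start of each gene (vertical axis, from 85 to 100) in each of the 4 libraries. For Bbc3, marked by an asterisk, the region over a second annotated start is plotted, and the dashed line is the median over all protein-coding starts called in all 4 libraries (94.4). Bcl2l1 and Bcl2l11 lie above the line in every library and Bax and Bak1 below it.

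At single starts the libraries of both genotypes lay close together. In such bulk libraries, fewer cells with a region open and less opening per cell cannot be told apart. The start region of Mcl1 (chr3:95658320-95659879) was at percentiles of 94.2 and 95.2 in WT and 96.2 and 95.5 in Il2ramut/mut cells, with 39, 59, 64 and 49 reads at the summit. The start region of Bcl2l1 (chr2:152830160-152831949) was at 96.7 and 96.6 in WT and 98.2 and 97.3 in Il2ramut/mut cells, with 56, 73, 96 and 68 reads. For both survival genes the percentiles did not overlap between the genotypes, with Il2ramut/mut higher (26.2% of all regions called in all 4 libraries), while the reads at the summit overlapped. The start region of Bcl2 (chr1:106713488-106714917) was at 93.3 and 94.0 in WT and 92.7 and 96.0 in Il2ramut/mut cells, and the genotypes overlapped. The Bcl2l11 start region (chr2:128125474-128128204) was the widest of these at 2731 bp and reached 97.0 and 97.0 in WT and 95.7 and 97.0 in Il2ramut/mut cells, with 59, 79, 59 and 64 reads, so that WT replicate 1 and Il2ramut/mut replicate 1 had equal reads. Its percentiles did not overlap either, with WT higher (12.6% of all regions called in all 4 libraries), although 3 of the 4 round to the same value. In limma, over the 38426 regions called in all 4 libraries, none of these starts passed an adjusted p of 0.05, nor did any region of the genome (0%), with differences (Il2ramut/mut minus WT, log2 fold enrichment) of 0.13 ± 0.17 (SE) at Mcl1, 0.23 ± 0.17 at Bcl2l1, 0.05 ± 0.20 at Bcl2 and −0.25 ± 0.14 at Bcl2l11, and adjusted p-values of 0.826, 0.711, 0.950 and 0.651.

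**Figure D2:**
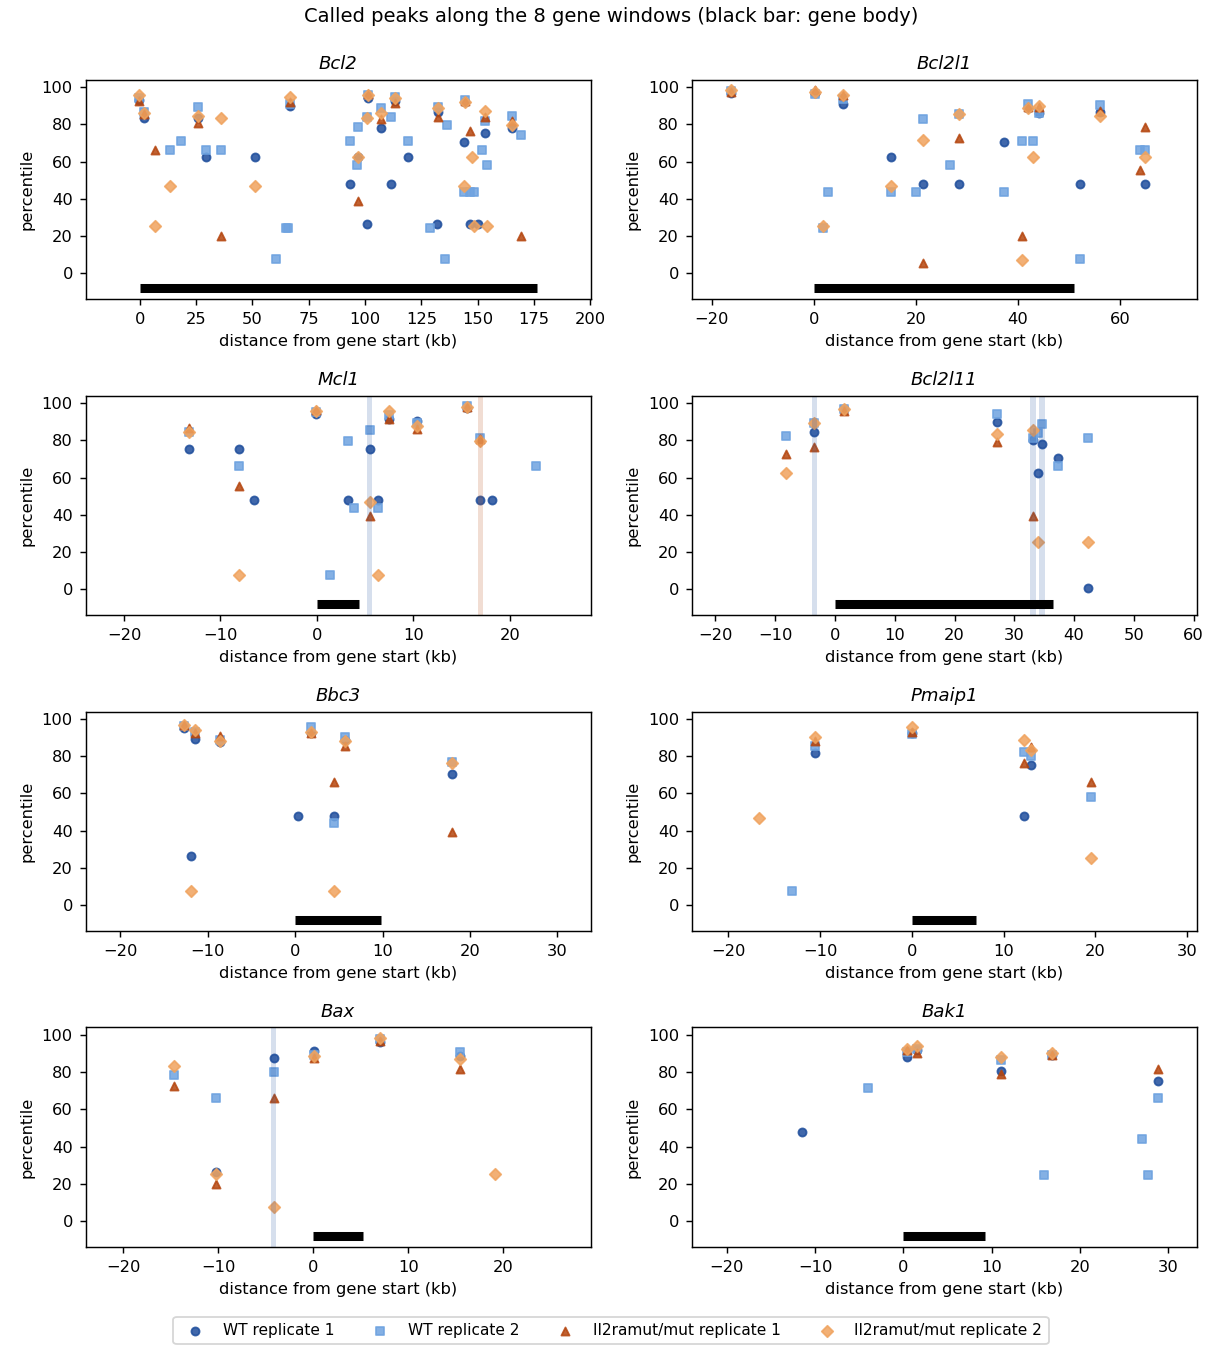
Every called peak in the 8 windows, by the distance of the region's summit from the gene start in kb (horizontal axis, in the direction of transcription) and its percentile within its library (vertical axis). Circles and squares are the WT replicates 1 and 2, triangles and diamonds the Il2ramut/mut replicates, black bars are gene bodies, and shaded lines mark open regions unique to WT (blue, 5 regions) or to Il2ramut/mut (orange, 1 region at Mcl1). Bcl2 holds most of the regions in its long intron, and Bcl2l11 has a wide gap between its start and its next region.

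Bcl2 is by far the longest of the 8 genes, 176097 bp, and its window held 38 regions, of which the summits of 36 lay in its introns. The 12 regions called in all 4 libraries spanned from the start to 165 kb into the gene, at median percentiles of 62.4 to 95.7. Of these, 11 were reproducible open regions in both genotypes, and none was unique to one genotype. The most significant one, Bcl2 r18 (regions are numbered along each gene in the direction of transcription), lay 102 kb inside the gene at chr1:106612319-106613238. Its percentiles were 94.2 and 95.7 in WT and 96.4 and 95.8 in Il2ramut/mut cells, with 39, 63, 67 and 51 reads, so it stood above the Bcl2 start itself in 3 of 4 libraries. The next one inside the gene, after the start region, Bcl2 r21 at 113 kb, was at 92.8, 94.8, 91.3 and 94.0 in the same order. Both lay in the first intron and overlapped between the genotypes in their reads, and in percentile r18 was separated only by 95.7 against 95.8. A weaker intronic region, Bcl2 r16 at 97.1 kb (chr1:106617008-106617508), was at 62.4 and 78.5 in WT and 39.1 and 62.3 in Il2ramut/mut cells. It held 9 and 14 reads in WT and 9 in each Il2ramut/mut library, so the genotypes were separated by percentile (62.4 against 62.3) but met at 9 reads. The sequences of r16 and r18, 300 bp centred on the summit, GRCm38, plus strand, are shown. Both hold a TTCNNNGAA word, the STAT word, in capitals, 49 bp from the summit in r16 and 107 bp in r18. In r16 a GTAAACA (FOXO) word on the minus strand, also in capitals, lies 11 bp to the other side of the summit. The STAT word also occurs in r19 and, 3 bp from the summit, in r21, which are not shown. Positions of r16 and r18 are chr1:106617034-106617333 and chr1:106612585-106612884.
Bcl2 r16: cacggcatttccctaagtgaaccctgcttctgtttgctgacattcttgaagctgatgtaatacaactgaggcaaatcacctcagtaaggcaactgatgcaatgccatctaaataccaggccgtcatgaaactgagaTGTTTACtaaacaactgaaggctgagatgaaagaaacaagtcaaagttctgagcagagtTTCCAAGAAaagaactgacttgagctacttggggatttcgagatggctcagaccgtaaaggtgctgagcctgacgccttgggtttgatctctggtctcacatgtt
Bcl2 r18: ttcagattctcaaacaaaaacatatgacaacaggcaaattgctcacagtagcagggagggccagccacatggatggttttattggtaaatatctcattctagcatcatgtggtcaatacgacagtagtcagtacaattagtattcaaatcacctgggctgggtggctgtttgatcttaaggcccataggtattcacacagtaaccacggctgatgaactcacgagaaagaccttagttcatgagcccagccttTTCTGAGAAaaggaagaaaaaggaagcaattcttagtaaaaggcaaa

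Bcl2 also held regions that separated the genotypes by their calls. Regions r7, r14, r20 and r22, at 29.5, 93.5, 112 and 119 kb, were called in both WT libraries and in neither Il2ramut/mut library, as were 2.70% of all merged regions, with 8 or 9 reads in WT replicate 1 and 10 to 19 in WT replicate 2. Region r3, at 6.84 kb, was the single region of all 114 that was called in both Il2ramut/mut libraries and in neither WT library (3.56% of all merged regions), with 11 and 7 reads. These are weak peaks, none of which was a reproducible open region, and 9 of the 12 Bcl2 regions called in one library alone were in WT replicate 2.

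Bcl2l1, which encodes Bcl-xL, had 19 regions, of which 9 were called in all 4 libraries and 6 were common open regions. Inside the gene, the most significant after the start was Bcl2l1 r5, 5.78 kb downstream of the start in an intron (chr2:152825629-152826283). It held 28 and 47 reads in WT and 60 and 52 in Il2ramut/mut cells, at percentiles of 91.2, 93.4, 95.8 and 95.9. Both Il2ramut/mut libraries stood above both WT libraries in reads and in percentile, the latter as in 26.2% of regions called in all 4 libraries. The log2 difference at r5 was 0.54 ± 0.17 (SE), with an unadjusted limma p of 0.0149 and an adjusted p of 0.582. It was the only one of the 53 regions with a positive difference and an unadjusted p below 0.05. Its 300 bp (chr2:152825796-152826095, GRCm38, plus strand) are shown for that reason, with the RUNX word TGTGGTT, here on the minus strand, in capitals.
Bcl2l1 r5: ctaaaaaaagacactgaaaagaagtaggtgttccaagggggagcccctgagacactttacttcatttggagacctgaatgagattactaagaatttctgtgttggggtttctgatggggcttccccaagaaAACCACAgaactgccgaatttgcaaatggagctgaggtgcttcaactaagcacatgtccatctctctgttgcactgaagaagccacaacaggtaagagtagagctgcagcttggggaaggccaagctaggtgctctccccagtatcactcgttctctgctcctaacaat

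Deeper in the Bcl2l1 intron, r10 at 28.5 kb was at percentiles of 47.7 and 85.7 in WT and 72.6 and 85.4 in Il2ramut/mut cells, a spread between WT replicates wider than any difference between the genotypes. A further pair of weak regions, r11 at 37.4 kb and r16 at 52.1 kb, the latter nearest to the Cox4i2 start, were called only in the WT libraries, with 6 to 10 reads. The strongest region of the window, r1 at 16.2 kb upstream, belonged to Tpx2, a spindle assembly gene, by its nearest start and was at 96.9, 98.2, 97.3 and 98.7.

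Mcl1 is a short gene of 4389 bp with 15 regions in its window, and 5 of the 8 regions called in all 4 libraries lay downstream of the gene. The most significant was r12, 15.6 kb downstream of the start and 2373 bp wide, with 65 and 108 reads in WT and 86 and 81 reads in Il2ramut/mut cells and percentiles of 97.5, 98.4, 97.8 and 98.0. It had the highest median percentile (97.9) of all 53 regions, above the Mcl1 start itself, and its nearest protein-coding start was that of Adamtsl4, a gene for an extracellular matrix protein. Between the gene and r12 lay r10, with 29, 48, 35 and 49 reads, and r11, with 26, 30, 21 and 19 reads, both common to the genotypes. The r11 reads were higher in both WT libraries, with a log2 difference of −0.50 ± 0.23 (SE) and an adjusted p of 0.597.

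Region r8, 5.47 kb downstream of the Mcl1 start (chr3:95663775-95664440), was a WT-unique open region. It held 11 and 22 reads in WT and 9 and 8 in Il2ramut/mut cells, at percentiles of 75.3 and 85.7 against 39.1 and 46.7. The genotypes did not overlap, with WT higher, by percentile as in 12.6% of all regions called in all 4 libraries. The log2 difference at r8 was −0.85 ± 0.26 (SE) with an unadjusted limma p of 0.0157 and an adjusted p of 0.582. A peak was called there in all 4 libraries, and the region was unique to WT because the irreproducible discovery rate (IDR) was 0.0308 in WT and 0.253 in Il2ramut/mut cells, against a threshold of 0.05. Region r13, at 16.9 kb and nearest to Adamtsl4, was the only Il2ramut/mut-unique open region of the 8 genes, with 8 and 16 reads in WT and 15 and 12 in Il2ramut/mut cells, which overlapped. Upstream, r2 at 8.09 kb from the start was at 75.3 and 66.3 in WT and 55.5 and 7.34 in Il2ramut/mut cells, on 11, 10, 10 and 6 reads. Region r6, in an untranslated exon part of Mcl1, was called only in WT, with 8 and 15 reads. The 300 bp of r8 (chr3:95664104-95664403) and r11 (chr3:95668998-95669297), GRCm38, plus strand, are shown as the Mcl1 regions with the WT-unique call and with a STAT word near the summit. Capitals mark TGANTCA (AP-1) in r8 and TTCNNNGAA (STAT) in r11.
Mcl1 r8: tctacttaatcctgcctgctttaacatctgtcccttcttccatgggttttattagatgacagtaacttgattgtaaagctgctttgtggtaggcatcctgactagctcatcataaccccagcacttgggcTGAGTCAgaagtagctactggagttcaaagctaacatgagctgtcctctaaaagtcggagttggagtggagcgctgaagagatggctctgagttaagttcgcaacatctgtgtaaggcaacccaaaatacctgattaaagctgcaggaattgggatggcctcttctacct
Mcl1 r11: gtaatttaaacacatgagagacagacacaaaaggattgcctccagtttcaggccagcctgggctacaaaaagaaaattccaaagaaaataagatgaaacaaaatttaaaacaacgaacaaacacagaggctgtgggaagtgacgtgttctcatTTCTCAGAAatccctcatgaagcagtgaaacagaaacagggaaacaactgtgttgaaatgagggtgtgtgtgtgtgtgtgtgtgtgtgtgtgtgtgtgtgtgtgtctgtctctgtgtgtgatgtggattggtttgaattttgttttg

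Bcl2l11, the gene for Bim, held more WT-unique open regions than any other gene of the group. Its 9 regions formed 5 reproducible open regions, of which 2 were common, 3 were WT-unique and none was unique to Il2ramut/mut cells, where 14.4% of the open regions of the genome were WT-unique. In all 4 regions that were called in every library the estimate was lower in Il2ramut/mut cells, with a median log2 difference of −0.36, against a median of −0.07 over the 53 regions of the 8 genes and 0.0039 over the genome. None of these 4 passed the threshold after adjustment.

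By log2 difference the widest gap in this window was at r4, while by mean percentile r5 had the wider one (−18.4 against −11.0). Bcl2l11 r4 was an intronic region 27.1 kb downstream of the start (chr2:128152462-128154052, 1591 bp, intron 3 of the longest transcript). Its summit held 25 reads in WT replicate 1 (95% Poisson interval 16.2 to 36.9), 51 in WT replicate 2 (38 to 67.1) and 14 in each Il2ramut/mut library (7.65 to 23.5), intervals that cover counting error only. The fold enrichment over background was 13.2 and 26.3 in WT and 6.73 and 7.29 in Il2ramut/mut cells, and the percentiles were 90.0 and 94.0 against 78.9 and 83.3. Both WT libraries stood above both Il2ramut/mut libraries on each of these scales, by percentile as in 12.6% of regions called in all 4 libraries. The log2 difference was −1.35 ± 0.25 (SE), with an unadjusted limma p of 0.00138, the lowest of the 53 regions, and an adjusted p of 0.582. With the libraries centred on their medians in place of quantile normalisation, the difference was again −1.35 and the adjusted p was 0.000788, so the call depended on the scaling. Leaving out one library at a time gave differences from −1.62 to −1.08, with adjusted p-values of 0.467 to 0.595. The region was a common open region, since the IDR was 1.71e-06 in WT and 0.0076 in Il2ramut/mut cells. Its 300 bp around the summit (chr2:128152948-128153247, GRCm38, plus strand) are shown as the region with the lowest p among the 8 genes, with TGTGGTT (RUNX) in capitals.
Bcl2l11 r4: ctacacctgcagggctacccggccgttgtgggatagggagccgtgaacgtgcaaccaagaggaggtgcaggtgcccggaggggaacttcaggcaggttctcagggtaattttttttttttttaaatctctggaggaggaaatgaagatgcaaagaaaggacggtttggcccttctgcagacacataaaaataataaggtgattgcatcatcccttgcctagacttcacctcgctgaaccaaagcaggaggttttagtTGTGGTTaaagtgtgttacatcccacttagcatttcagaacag

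Towards the end of Bcl2l11, regions r5 to r8 lay from 33.2 to 37.4 kb from its start. Region r5, in an untranslated exon part, held 13 and 16 reads in WT and 9 and 16 in Il2ramut/mut cells, which overlapped, and was WT-unique by its IDR (0.00488 against 0.520). Region r7 (chr2:128160328-128160911) was called with 12 and 29 reads in WT and had no called peak in either Il2ramut/mut library, and it was the one region of the 8 genes that was both a WT-unique open region and called in WT libraries alone. Region r8, just beyond the gene, was called with 10 reads in each WT library and in neither Il2ramut/mut library. Upstream, r2 at 3.45 kb, in an intron of the neighbour Acoxl, held 16 and 30 reads in WT and 13 and 22 in Il2ramut/mut cells. These overlapped, and the WT-unique call of r2 rested on an IDR of 0.0872 in Il2ramut/mut cells. WT replicate 2 had the most reads in 7 of the 9 regions of the gene and shared the most with another library in the other 2.

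**Figure D3:**
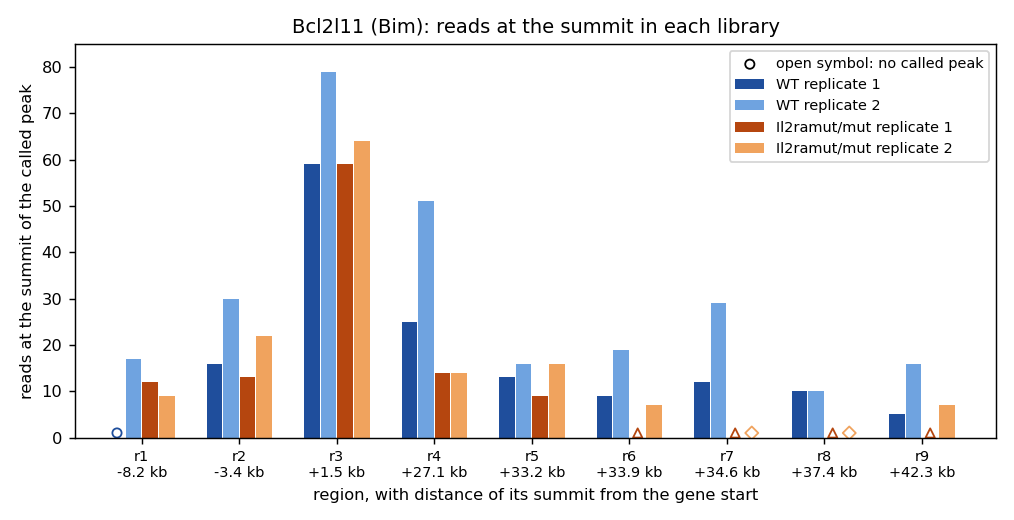
Reads at the summit of the called peak (vertical axis) in each library for the 9 regions of the Bcl2l11 window, r1 to r9, with the distance of each summit from the gene start. Open symbols mark libraries with no called peak, and at r4 the WT bars reach 25 and 51 reads against 14 in each Il2ramut/mut library.

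Bbc3, which encodes Puma, had 9 regions, 7 of them called in all 4 libraries, and its 5 reproducible open regions were all common. Its widest region, r6, was 2864 bp (chr7:16308981-16311844) and held 32 and 63 reads in WT and 38 and 34 reads in Il2ramut/mut cells, at percentiles of 92.5, 95.7, 92.3 and 93.0. The genotypes overlapped, with a log2 difference of −0.39 ± 0.20 (SE) and an adjusted p of 0.617. Upstream, r4 at 8.55 kb held 20, 29, 32 and 20 reads, and r1 and r3, nearest to Ccdc9, were more significant than r4. The 300 bp at the summit of r6 (chr7:16310011-16310310, GRCm38, plus strand, 74.7% G or C) are shown as a promoter-type sequence of the group, with GGGCGG (SP and KLF), AGGGGGC (part of the CTCF site) and GTAAACA (FOXO), the latter on the minus strand, in capitals. The plus-strand AGGGGGC overlaps a GGGCGG.
Bbc3 r6: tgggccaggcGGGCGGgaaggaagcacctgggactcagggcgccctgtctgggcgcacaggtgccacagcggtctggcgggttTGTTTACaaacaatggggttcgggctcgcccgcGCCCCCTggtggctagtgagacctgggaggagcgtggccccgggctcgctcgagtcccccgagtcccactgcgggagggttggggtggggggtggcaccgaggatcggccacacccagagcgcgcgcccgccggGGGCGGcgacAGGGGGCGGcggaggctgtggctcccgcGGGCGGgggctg

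Pmaip1, which encodes Noxa, had 7 regions, all nearest to its own start, and all 4 of those called in every library had a higher estimate in Il2ramut/mut cells, with a median log2 difference of 0.38. Its start held 32 and 39 reads in WT and 40 and 50 in Il2ramut/mut cells, at percentiles of 92.5, 91.8, 92.7 and 95.7. An upstream region, r3 at 10.6 kb, was at 81.9 and 85.7 in WT and 88.3 and 90.1 in Il2ramut/mut cells, with 14, 22, 25 and 24 reads, and a downstream region, r6 at 13 kb, was at 75.3 and 79.9 against 84.8 and 83.3. In these 3 regions the percentiles did not overlap between the genotypes, all of them with Il2ramut/mut higher, as in 26.2% of all regions called in all 4 libraries, but at r6 the reads did overlap, 11 and 15 against 19 and 14. The adjusted limma p-values were 0.732, 0.612 and 0.737, so none passed. The 3 open regions of Pmaip1 were all common to both genotypes.

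At Bax, the gene of the first pore former, all 5 regions called in every library had a lower estimate in Il2ramut/mut cells. Their median log2 difference was −0.42, and r5 was at only −0.01. Bax was the nearest start for 2 of the 7 regions in its window. At Bak1, the other pore former, 3 of 4 had a lower estimate, with a median of −0.04. By percentile, however, the median difference at Bak1 was 0.52, with Il2ramut/mut higher. The Bax start (chr7:45466247-45467138) held 28 and 30 reads in WT and 23 and 21 in Il2ramut/mut cells, at percentiles of 91.2 and 89.3 against 87.3 and 88.8. These percentiles did not overlap, with WT higher, as in 12.6% of all regions called in all 4 libraries. The log2 difference at the Bax start was −0.42 ± 0.23 (SE) with an adjusted limma p of 0.635. The start of Bak1 (chr17:27028221-27028893) held 21 and 35 reads in WT and 37 and 31 in Il2ramut/mut cells, at percentiles of 88.0 and 90.8 against 92.1 and 92.3. Here too the percentiles did not overlap, with Il2ramut/mut higher, as in 26.2% of all regions called in all 4 libraries. The log2 difference at the Bak1 start was 0.27 ± 0.20 (SE) with an adjusted limma p of 0.705. Close to it, Bak1 r4 held 30, 41, 31 and 40 reads, and the genotypes overlapped.

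A WT-unique open region, Bax r3, lay 4.16 kb upstream of the Bax start in an untranslated exon of the neighbour Dhdh (chr7:45470831-45471283). It held 20 and 15 reads in WT and 11 and 6 in Il2ramut/mut cells, at percentiles of 87.4 and 79.9 against 66.2 and 7.34, the widest gap in mean percentile (−46.8) of the 53 regions. The log2 difference was −1.07 ± 0.37 (SE), with an unadjusted limma p of 0.0247 and an adjusted p of 0.582. By percentile the Il2ramut/mut libraries differed from each other by more than the WT libraries did. Farther upstream, Bax r2 held only 7 and 10 reads in WT and 8 and 7 in Il2ramut/mut cells and overlapped in reads. The most significant region of the window, r5, had Ftl1, a ferritin gene, as its nearest start and was at 96.4, 97.9, 96.5 and 98.1.

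Across the 8 genes, more regions were called in both WT libraries alone than in both Il2ramut/mut libraries alone. Of the 114 regions, 9 (7.89%) were called in both WT libraries and in neither Il2ramut/mut library, against 2.70% of all merged regions, and 1 (0.877%) in both Il2ramut/mut libraries and in neither WT library, against 3.56%. Among regions called in exactly 2 libraries, the WT pair made up 9 of 19 here (47.4%) and 16.4% over the genome. The 2 WT replicates had a called peak in 78 and 102 of the 114 regions, and the Il2ramut/mut replicates in 63 and 75. Of all regions called in each library, these were 0.0739% and 0.0845% in WT and 0.0544% and 0.0558% in Il2ramut/mut cells. WT replicate 2 alone accounted for 20 of the 29 regions called once (69.0%), against 24.4% over the genome. Leaving out a WT library makes called in WT alone a looser rule, since a call in the remaining WT library is enough. Without WT replicate 2, regions called in WT alone made up 16% of the regions at these genes and 17.8% over the genome. Regions called in both Il2ramut/mut libraries alone made up 6.38% and 7.43%, so the shares then lay close to the background. Without any one of the other 3 libraries, the share called in WT alone stayed above the genome's, 26.9% against 20.2%, 9.65% against 4.94% and 13.5% against 6.15%. What the excess in WT rests on was not tested.

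By reproducible open regions, 39 of 45 (86.7%) at these genes were common, 5 (11.1%) were WT-unique and 1 (2.22%) was Il2ramut/mut-unique, beside 71.9%, 14.4% and 13.7% of the 29232 open regions of the genome. The 5 WT-unique regions lay at Bcl2l11 (3), Mcl1 and Bax, and only r7 of Bcl2l11 among them lacked a called peak in the other genotype.

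Of the 53 regions called in all 4 libraries, the percentiles did not overlap between the genotypes in 24, 11 with WT higher (20.8%) and 13 with Il2ramut/mut higher (24.5%), against 12.6% and 26.2% of all such regions of the genome. The direction depended on the scale. With the quantile-normalised fold enrichment that entered limma, 17 (32.1%) were higher in WT and 7 (13.2%) in Il2ramut/mut cells, against 17.5% and 18.2% over the genome, and with percentiles among peaks of a −log10 q of at least 3, 3 of 48 (6.25%) and 17 (35.4%), against 5.19% and 44.2%. On all 3 scales, which rest on the same 4 libraries, the share higher in WT was above that of the genome. The share higher in Il2ramut/mut cells was below that of the genome. Some of these shares lay close to the background (6.25% against 5.19%, and 24.5% against 26.2%), and the difference was not tested.

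**Figure D4:**
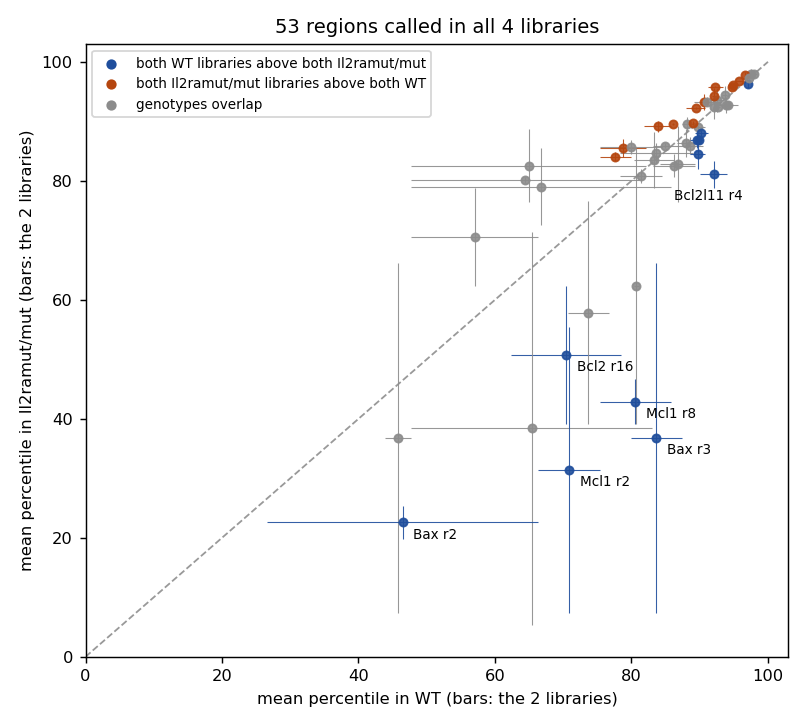
Mean percentile in WT (horizontal axis) and in Il2ramut/mut cells (vertical axis) of the 53 regions called in all 4 libraries, with bars that span the 2 libraries of each genotype and a dashed line of equal values. Blue points (11) have both WT libraries higher and orange points (13) both Il2ramut/mut libraries higher, with most orange points close to the line above a percentile of 75 and the largest gaps, at Mcl1 r2, Mcl1 r8 and Bax r3, below it.

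In limma (two-sided, Benjamini-Hochberg adjustment over all 38426 regions), 0 of the 53 regions passed. At an unadjusted p below 0.05 there were 5 of the 53 (9.43%), and 8.55% over the genome. These 5 were Bcl2l11 r4, Mcl1 r8, Bax r3 and Bax r6 with lower values in Il2ramut/mut cells, and Bcl2l1 r5 with higher values. For Bax r6, in an intron of the glycogen synthase gene Gys1, the reads were 22 and 35 in WT and 16 and 18 in Il2ramut/mut cells. Of the 53 estimates, 22 were higher and 31 lower in Il2ramut/mut cells, with a median of −0.07. With 2 libraries against 2, an exact permutation test of a single region cannot go below a two-sided p of 0.33. With median centring, 1 of the 53 regions passed, Bcl2l11 r4, beside 0.458% of all regions that passed with lower and 0.370% with higher values in Il2ramut/mut cells.

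Of the 14 other BCL2 family genes, 7 had a start called in all 4 libraries and 6 had none, where 48.4% of all protein-coding genes had a start called in all 4 and 39.0% had none. The called starts were those of the survival genes Bcl2a1b and Bcl2a1d, of the BH3-only genes Bid, Bad, Bik and Bmf, and of Bcl2l13, at median percentiles from 66.9 (Bmf) to 95.3 (Bcl2l13). Bcl2a1a, Bcl2l10, Hrk, Bok, Bcl2l14 and Bcl2l15 had no called start, and Bcl2l2 had one only in WT replicate 2. The Bcl2a1 genes are near-identical copies, so that reads may be split between them or lost. In the list of apoptosome and caspase genes, 7 of 8 had a start called in all 4 libraries, all common. Their median percentiles ran from 88.1 (Casp8) to 98.2 (Cycs, which encodes cytochrome c). Xiap, a caspase inhibitor, had no called start. At the starts of Apaf1, Cycs, Casp9 and Casp8 the percentiles did not overlap and were higher in Il2ramut/mut cells, beside 26.2% of all regions called in all 4 libraries. In limma 0 of the 14 starts of both lists passed, the lowest adjusted p was 0.582, and 1, that of Apaf1, had an unadjusted p below 0.05.

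Sequence words were counted in the 300 bp around the summit of each region, on both strands. The STAT word TTCNNNGAA was present in 17 of 114 regions (14.9%), against 9.28% of the 271773 merged regions with such a window, and in 9 of the 53 called in all 4 libraries (17%), against 8.77%. Of these 9, 4 lay in the Bcl2 intron, 2 at Bcl2l1, 2 at Mcl1 and 1 at Bax, and both of those at Bcl2l1, Mcl1 r12 and the one at Bax lay nearest to the starts of neighbours. Bcl2l11 had the word in r6 and r7, neither of which was called in all 4 libraries. The FOXO word GTAAACA was present in 9 regions (7.89%), against 4.13%, and in r7 of Bcl2l11 both words occurred. The ETS words ACAGGAA and CCGGAAGT were present in 21.9% and 1.75%, against 11.7% and 0.737%, the RUNX word in 7.02%, against 7.56%, and the AP-1 word in 16.7%, against 10.1%. Among regions called in all 4 libraries the AP-1 share was 20.8% here and 10.7% over the genome, and the RUNX share 7.55% and 10.1%. Among the same regions the FOXO share was 3.77% here and 3.99% over the genome, the ACAGGAA share 18.9% and 17.1%, and the CCGGAAGT share 3.77% and 3.40%, so that these words were about as frequent here as over the genome. The NRF1 word GCGCATGCG was present in 3 regions (2.63%, against 0.241%), among them the Bax start. The SP and KLF word was present in 14.9%, against 7.73%, and the CTCF part in 12.3%, against 4.85%. Among regions called in all 4 libraries the SP and KLF share was 28.3% here and 28.0% over the genome. The share of the CTCF part there was 11.3% and 9.54%, and that of the NRF1 word 3.77% and 1.24%. A full p53 site, searched as adjoining half-sites with no spacer or mismatch allowed, was present in none of the 114 regions. This strict form matched only 20 of the 271773 regions (0.00736%). Its absence here therefore cannot show whether regions of Bbc3 or Pmaip1 hold p53 sites. These are matches of letters and not measured binding.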

How the data were processed

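ATAC-seq of sorted LN Treg cells was compared between WT and Il2ramut/mut mice, 2 libraries each. Per the submitters' processing notes, the authors used Trim Galore 0.3.7, BWA 0.7.13, SAMtools 0.1.19, Picard 1.92 and MACS2 2.1.0 on mm10, with peaks called per library. In the deposited peak lists, column 7 holds the fold enrichment at the summit, a ratio to background. The deposited columns 8 and 9 hold the −log10 p-value and −log10 q-value, and the deposited score in column 5 is 10 times the −log10 q, cut to a whole number. The fold values equalled whole reads plus 1 times a fixed step in each library (tolerance 0.02 reads), from which the reads at the summit were taken. Only called peaks are listed and the depth is unknown, so weak or missing peaks could not be compared further.

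Peaks were merged at an overlap of 1 bp. Reproducible open chromatin regions had an IDR of at most 0.05 between the replicates of a genotype, computed with a copula mixture on the −log10 p (seed 1), and genotypes were compared by overlap. Regions called in all 4 libraries were tested with limma 3.58.1 (R 4.3.3, moderated, with trend) on quantile-normalised log2 fold enrichment, with Benjamini-Hochberg adjustment over all 38426 of them. Scripts were tested on simulated data. Python 3.11.15, numpy 2.4.6, pandas 2.3.3, scipy 1.17.1 and matplotlib 3.10.9 were used, with the GRCm38.p6 RefSeq genome and GENCODE annotation. The start region of a gene covers its start or else is the nearest within 1 kb.

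The genes and lists were chosen with earlier results of these data known. The result of one gene of the apoptosome and caspase list is not reported here. Regions were given with values if they were at the start, among the 2 other most significant of the gene, past the limma threshold, unique to a genotype, called in both libraries of one genotype alone, or among the 5 with the largest percentile gap without overlap. Others named (Bcl2l1 r1, Mcl1 r12, Bax r5 and r6, Bbc3 r1 and r3, Bcl2l11 r6) were chosen after their values were seen. Alternatives were other windows, overlaps, IDR limits and seeds, a q limit, other scalings, the replicate block and leaving out each library.

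Same-numbered libraries showed no shared deviation: their deviations from the genotype means correlated at 0.0109. This cannot show whether same-numbered libraries were collected or processed together.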

Additional observations from a re-analysis of the deposited data

How the results depend on the processing

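The 4 lists give called peaks without depth, so a region missing from a list cannot be told from one just below the threshold. With 2 libraries a genotype, limma on quantile-normalised values called no region, not even Bcl2l11 r4 at a log2 difference of −1.35. Large as well as small differences could therefore go uncalled. With the gene bodies alone, the regions numbered 69, those called in all 4 libraries 29 and those without overlap 14. Open regions unique to WT numbered 17 without the IDR step and 2 at a −log10 q of at least 3, and those unique to Il2ramut/mut 6 and 2. Those unique to Il2ramut/mut numbered 4 at an IDR of at most 0.01 and 3 and 2 with seeds 2 and 3. Leaving out one library gave 4 to 13 unique to WT and 1 to 5 unique to Il2ramut/mut. Regions called in one genotype alone then numbered 15 to 30, an alternative chosen after seeing the data.

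In limma, median centring called 1 region, Bcl2l11 r4 (adjusted p 0.000788), where the other alternatives called 0. With the replicate block 0 regions were called, as in the fit without it, so the block had no call to take away. At an unadjusted limma p below 0.05 there were 6 of the 53 regions with the block and 5 without it. Of 189 alternative differences at 27 named regions, 173 kept their direction and side of the threshold, 15 reversed and 1 became significant, and 17 regions kept their sign throughout. The cause of the reversals was not tested. Leaving out one library gave −0.181 to 0.287 at Bcl2 r1, −0.00724 to 0.298 at Bcl2 r18, −0.437 to 0.501 at Bcl2l1 r10, −0.0084 to 0.273 at Mcl1 r4, −0.197 to 0.359 at Mcl1 r10, −0.0966 to 0.466 at Mcl1 r13, −0.772 to 0.0329 at Bcl2l11 r2, −0.824 to 0.147 at Bcl2l11 r5, −0.246 to 0.309 at Bbc3 r4 and −0.267 to 0.174 at Bak1 r4. Bcl2l1 r10 was −0.0121 with median centring, and Bak1 r4 was 0.102 on the logit of the percentile.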
